A study of Homo sapiens with 9 samples.

Results

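SLC7A3 encodes a carrier that brings the cationic amino acids arginine, lysine and ornithine into the cell, and it is described here with 9 other amino acid transporter genes. The 10 genes are those rows of the deposited table whose symbol is SLC7A3, SLC7A1, SLC7A2, SLC7A5, SLC7A6, SLC7A8, SLC7A11, SLC3A2, SLC1A5 or SLC38A2, out of 60829 rows in all. All 10 passed the filter on low counts that kept 27777 rows for testing. SLC7A3 was selected on its normalized counts and fold change between the 2 clones in these same libraries, and the others as its relatives with earlier results known. Their differences between the clones are therefore given as descriptions.

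The 5 knockout libraries come from 1 clone of H1, an established human embryonic stem cell line, labelled as a knockout of the chromosome X locus HERVHlin (chrX-KO_H1, genotype label "knock out"). The 4 control libraries come from 1 control clone of the same line (chrX-ctrl_H1, genotype label "WT"). HERVH elements are remnants of ancient retroviral insertions, many of which are active in pluripotent cells. The libraries of a clone are successive passages, technical replicates by the design text and biological ones by the titles. An effect of the knockout and a difference between 2 clones cannot be told apart, and p-values measure the spread between passages. The deposited table flags 3 unnamed rows in a knockout column, and no source used here explains that flag. Of these, gene.human_00015544 averaged 57.5 ± 18.4 normalized counts in the knockout clone and 2700 ± 1198 in the control clone, and gene.human_00001528 averaged 116 ± 35.9 and 698 ± 299 in the same order (SD, n = 5 and n = 4), both without overlap. The remaining row, gene.human_00011326, averaged 1452 ± 307 in the knockout clone and 2403 ± 841 in the control clone, with overlapping groups (limma adjusted p = 0.44). Both groups were grown in mTESR, a stem cell medium, on vitronectin, while a treatment label calls all of them "differentiated cells".

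Amino acid transporters of the SLC7 family fall into 2 classes. The cationic amino acid transporters (SLC7A1, SLC7A2 and SLC7A3) work as single glycosylated chains, whereas the light chains (SLC7A5, SLC7A6, SLC7A8 and SLC7A11) reach the cell surface only when joined to the heavy chain SLC3A2. SLC1A5 and SLC38A2 carry neutral amino acids such as glutamine and alanine. When amino acids run short, the transcription factor ATF4 raises the transcription of several of these genes, and the supply of leucine and arginine is sensed by the kinase complex mTORC1.

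The cationic transporters are related in sequence, which matters for whether reads can be assigned to one of them. Over the aligned coding bases SLC7A3 was identical to SLC7A1 at 62.6% of 1830 and to SLC7A2 at 61.4% of 1849, and to the light chain SLC7A5 at 41.4% of 1520. The 90 coding bases in which SLC7A3 and SLC7A1 are most alike are shown 5′ to 3′ from GENCODE 29, with the 14 bases that differ in capitals, to show how close the pair come. They are coding bases 1009 to 1098 of SLC7A3 (minus strand, across the junction of exons 6 and 7, chrX:70927569-70927832 in GRCh38 with the intron) and 1015 to 1104 of SLC7A1 (minus strand, exons 7 and 8, chr13:29522402-29523300).
SLC7A3: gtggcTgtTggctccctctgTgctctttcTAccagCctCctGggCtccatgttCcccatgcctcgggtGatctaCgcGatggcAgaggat
SLC7A1: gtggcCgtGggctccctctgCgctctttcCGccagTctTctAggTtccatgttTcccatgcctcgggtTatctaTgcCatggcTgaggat
Even there no run of 31 bases is shared. Of the 2264 distinct 31-base words in the SLC7A3 transcripts of GENCODE 29, 0 occur in a transcript of any other gene on either strand, and likewise 0 of 7660 for SLC7A1, 0 of 6187 for SLC7A8 and 0 of 6703 for SLC38A2. SLC7A6 shares 53.5% of its words, most of them with SLC7A6OS, a gene on the opposite strand whose exons overlap its own by 3371 bases. SLC1A5 shares 22.8% of its words, mainly with AC008622.2, SLC7A11 shares 12.2%, mainly with SLC7A11-AS1, and SLC7A5 shares 11.2%, most often with the pseudogene SMG1P3. The values of these 4 genes may hold reads of the other genes. The kit marks the strand, but no source used here says whether counting used it. Words were matched on both strands together, so they do not show how much use of the strand would separate. The remaining members share under 1% of their words (0.088% for SLC7A2 and 0.984% for SLC3A2), and 0 words of any member occur in another member.

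SLC7A3 lies on chromosome X (70925582 to 70931125, minus strand), the chromosome of the knocked-out locus, and the other members lie on autosomes. SLC7A3 measured 936, 1187, 836, 666 and 646 normalized counts in knockout libraries 1 to 5, against 1906, 1854, 2038 and 1941 in control libraries 1 to 4. A normalized count is a read count after division by the size factor of its library, as deposited by the authors. Every knockout library lay below every control library, with knockout 2 and control 2 nearest to each other. The mean was 854 ± 222 in the knockout clone (SD, n = 5) and 1935 ± 77.8 in the control clone (SD, n = 4), a ratio of 0.442. In normalized counts the coefficient of variation was 4.02% among the control passages, against 25.97% among the knockout passages. Which clone varied more depends on the scaling. In reads per kilobase of merged exons, scaled to library depth, the control passages had the wider spread. On that scale control passages averaged 34.5 (SD 9.82) and knockout passages 16.2 (SD 1.88). The log2 fold change of log2(value + 1) in limma, fitted over all tested rows, was -1.22 (SE 0.19), and the authors' deposited table gives -1.18 (SE 0.19).

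SLC7A3 was the 1 member among the rows that limma called at an adjusted p under 0.05. Of all 27777 tested rows, 118 were called lower (0.425%), 32 higher (0.115%) and 150 in either direction (0.54%). As this difference chose the gene, nothing is read from its call, which was also sensitive to the fit: it was lost with the replicate number as a block (log2 fold change -1.12) and in 7 of 9 fits with 1 library left out, where the fold change ran from -1.34 to -1.12. The labels file the replicate number as a batch, hence the block.

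Other tests called other members. DESeq2 called SLC7A3, SLC7A2, SLC7A5 and SLC3A2 lower, beside 1.62% of all rows, and the authors' deposited table calls the same 4, beside 1.53%. edgeR called SLC7A3 alone, beside 0.432% of rows called lower. No member was called with the replicate block (0.104% of rows lower), under quantile normalization (0.374%) or with libraries scaled to their protein-coding reads (0.342%). With a library left out, limma called SLC7A3 without knockout 2 (0.252% of rows lower) and without control 4 (0.49%), SLC7A2 without knockout 3 (0.324%), and no member in the other 6 fits. At an unadjusted limma p under 0.05, 7 of the 10 members were lower, beside 5.05% of all rows.

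**Figure D1:**
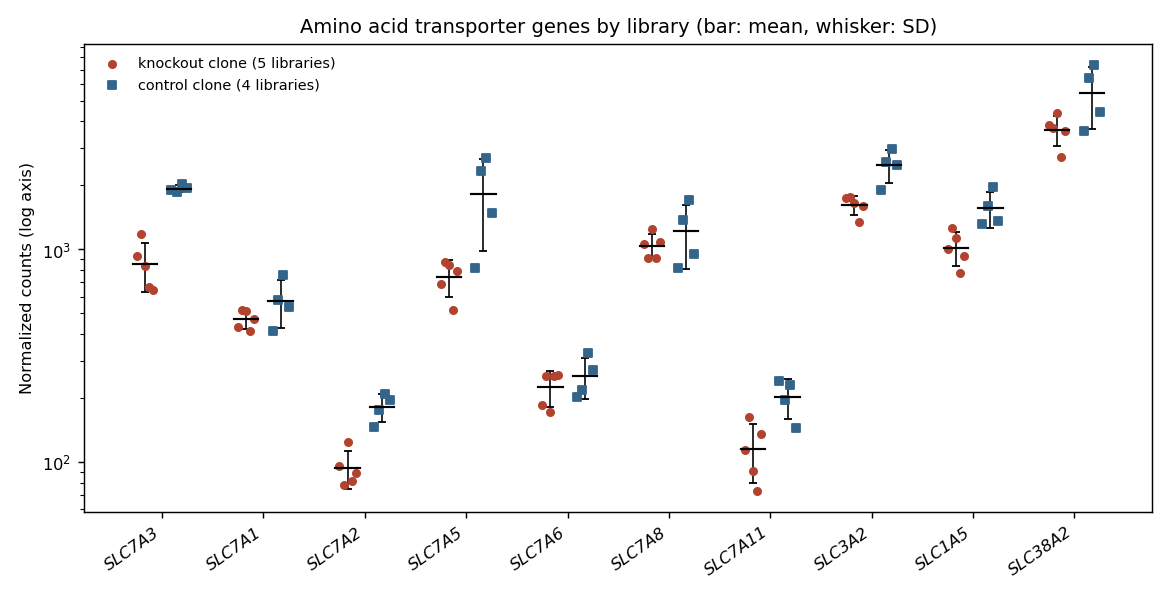
Normalized counts (log axis) of the 10 transporter genes, with 1 point per library, knockout clone (red circles, 5 libraries) left of control clone (blue squares, 4 libraries), bar at the mean and whisker for the SD. The SLC7A3 points of the knockout clone lie between 646 and 1187, all below the control points between 1854 and 2038, whereas the points of SLC7A1, SLC7A6 and SLC7A8 overlap.

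The other cationic transporters differed from each other. SLC7A1, the widely expressed arginine and lysine carrier (chromosome 13, 29509410 to 29595688), measured 434, 520, 511, 414 and 472 normalized counts in the knockout libraries, against 415, 578, 761 and 536 in the control libraries. The groups overlapped, with 1 of 5 knockout libraries below the lowest control library, and the log2 fold change was -0.26 (SE 0.18). SLC7A2, a carrier of the same class known from liver and from activated macrophages (chromosome 8, 17497088 to 17570573), measured 95.8, 77.8, 125, 81.5 and 88.5 normalized counts in the knockout libraries, against 146, 176, 209 and 197 in the control libraries. The groups did not overlap, and its log2 fold change was -0.96 (SE 0.19), which missed limma's threshold (adjusted p = 0.072, and 0.18 with the block). The authors' deposited table gives SLC7A2 an adjusted p of 0.00017.

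Within a library, the make-up of the cationic class does not depend on how libraries are scaled against each other. In reads per kilobase of merged exons, SLC7A3 supplied 79.7% to 87.1% of the summed level of the class in the knockout libraries, against 87.8% to 92.1% in the control libraries. SLC7A1 supplied 11.2% to 17.2% in the knockout libraries, against 5.91% to 9.65% in the control libraries. SLC7A3 thus stood 4.65 to 7.76 times above SLC7A1 per length in the knockout libraries, against 9.10 to 15.6 times in the control libraries, again without overlap. These shares and ratios are built from the values that selected SLC7A3, so they describe the same difference again. SLC7A3 stayed the main cationic carrier by transcript level in all 9 libraries.

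**Figure D2:**
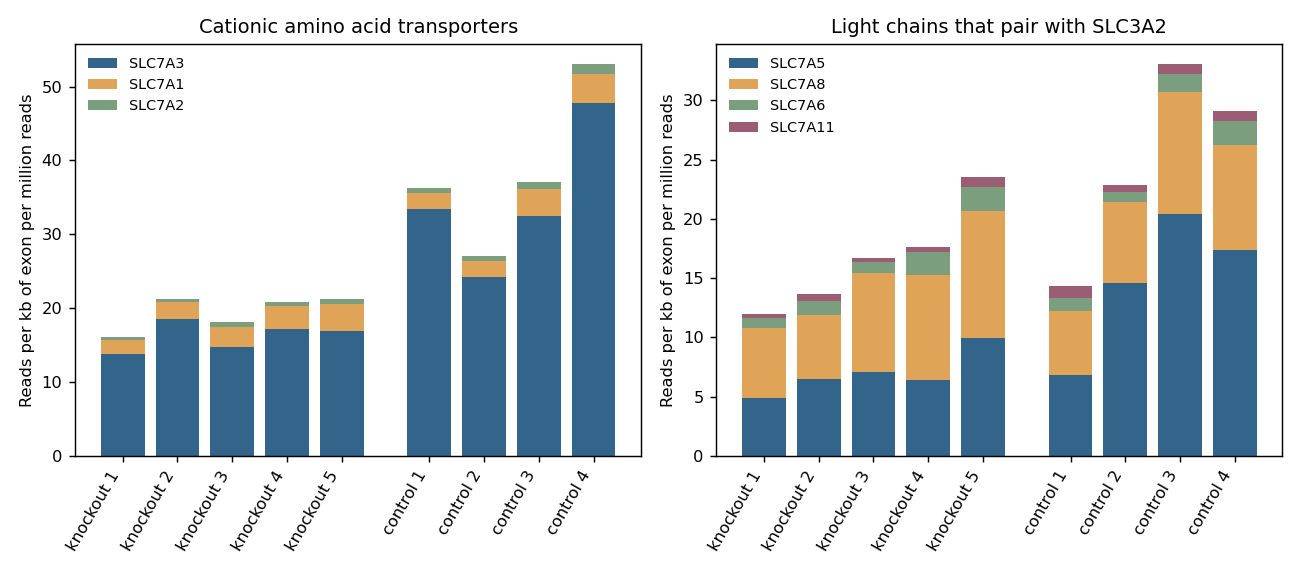
Level per length (reads per kilobase of merged exons, scaled to library depth) in each library, stacked by gene, for the cationic transporters (left) and for the light chains that pair with SLC3A2 (right), knockout libraries left of control libraries. The SLC7A3 segment stands between 13.8 and 18.5 in the knockout libraries and between 24.2 and 47.8 in the control libraries.

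The heavy chain SLC3A2 (CD98 heavy chain, chromosome 11, 62856102 to 62888875) measured 1751, 1761, 1652, 1348 and 1610 normalized counts in the knockout libraries, against 1908, 2570, 2981 and 2486 in the control libraries. All knockout libraries lay below all control libraries, the nearest pair being knockout 2 and control 1. SLC3A2 stood at -0.60 on the log2 scale (SE 0.16, limma adjusted p = 0.20). The authors' deposited table gives -0.61 with an adjusted p of 0.0088. SLC7A3 and SLC3A2 are the members that the authors' deposited table marks for overlap with a LIN28 knockout. They are 2 of the 10 members, beside 96 marked among all 27777 tested rows. Of the 96 marked rows 76 had a negative log2 fold change. No source used here says how that mark was made.

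SLC7A5, the light chain that takes up large neutral amino acids such as leucine (chromosome 16, 87830023 to 87869488), measured 689, 877, 842, 520 and 794 normalized counts in the knockout libraries, against 815, 2341, 2683 and 1479 in the control libraries. Control 1 lay among the knockout libraries, so the groups overlapped, and the other control libraries were all higher. SLC7A5 stood at -1.18 on the log2 scale (SE 0.33, limma adjusted p = 0.24) and at -1.52 without control 1 (adjusted p = 0.053). SLC7A8, a light chain for neutral amino acids of all sizes (chromosome 14, 23125295 to 23183674), measured 1060, 908, 1244, 913 and 1085 normalized counts in the knockout libraries, against 821, 1380, 1708 and 953 in the control libraries. The knockout libraries lay inside the range of the control libraries, and the log2 fold change was -0.17 (SE 0.22), or 0.012 without control 3.

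SLC7A6, a light chain that exchanges arginine for neutral amino acids (chromosome 16, 68264516 to 68301823), ranged from 171 to 258 normalized counts in the knockout libraries and from 202 to 325 in the control libraries, with a log2 fold change of -0.17 (SE 0.20). SLC7A11, the light chain that exchanges cystine for glutamate and so feeds glutathione synthesis (chromosome 4, 138164097 to 138242349), measured 114, 162, 90.8, 73.3 and 135 normalized counts in the knockout libraries, against 241, 196, 231 and 145 in the control libraries. Of the knockout libraries 4 of 5 lay below the lowest control library, and knockout 2 lay above it. SLC7A11 stood at -0.84 on the log2 scale (SE 0.26, limma adjusted p = 0.30).

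Among the light chains the shares also differed. SLC7A5 supplied 36.2% to 47.8% of the summed per-length level of the 4 light chains in the knockout libraries, against 47.7% to 63.9% in the control libraries, with control 1 lowest of its group. SLC7A8 supplied 39.2% to 50.3% in the knockout libraries, against 29.8% to 38.0% in the control libraries, without overlap. The ratio of SLC3A2 to the summed light chains overlapped between the groups, at 0.765 to 0.944 in the knockout libraries and 0.628 to 1.02 in the control libraries. This ratio depends on the length used: by the longest transcript of each gene it was 1.44 to 1.77 in the knockout libraries and 1.25 to 1.99 in the control libraries, again overlapping. By that length the SLC7A5 shares, 30.2% to 41.5% in the knockout libraries and 41.6% to 57.5% in the control libraries, no longer overlapped.

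The upstream 250 bases of SLC7A5 and SLC3A2, which form 1 transporter together, are shown from RefSeq (GRCh38.p14). Each is on its gene's strand, 5′ to 3′, and ends just before an annotated start. Capitals mark matches on either strand to CACGTG, the E-box that MYC family factors bind, or to TGACNNNGC, the core of the antioxidant response element; TGATGNAA, the core of the ATF4 amino acid response element, was searched too. The antioxidant core of SLC7A5 begins at -2 and runs past the bases shown. SLC7A5 is shown at chr16:87869508-87869757 (minus strand) and SLC3A2 at chr11:62881449-62881698 (plus strand). RefSeq holds further starts of SLC3A2, and the start shown was picked among them for its marked match. The upstream bases of the others (chr11:62855859-62856108 and chr11:62880646-62880895) hold no marked match.
SLC7A5: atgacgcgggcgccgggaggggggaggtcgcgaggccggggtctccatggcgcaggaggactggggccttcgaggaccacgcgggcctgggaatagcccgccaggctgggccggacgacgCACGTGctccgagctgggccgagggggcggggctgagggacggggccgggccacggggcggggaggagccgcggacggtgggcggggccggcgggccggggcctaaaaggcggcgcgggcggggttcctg
SLC3A2: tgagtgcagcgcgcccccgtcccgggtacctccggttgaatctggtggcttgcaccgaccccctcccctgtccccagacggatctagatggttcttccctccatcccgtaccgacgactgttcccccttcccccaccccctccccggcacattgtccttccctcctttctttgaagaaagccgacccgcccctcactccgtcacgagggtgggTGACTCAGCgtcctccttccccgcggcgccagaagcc
Promoters were matched for 7 of the 10 members, with 14 starts, and the window searched ran to 50 bases after the start. SLC7A3, SLC7A2 and SLC7A11 had no promoter in the set used, so they were not searched for any of these motifs. The amino acid response core was found at 3 of the 14 starts (in SLC3A2, SLC7A1 and SLC1A5), against 3.62% of all 35116 promoters. The E-box was found at 3 of 14 (in SLC7A5, SLC7A8 and SLC1A5), against 7.26% of all promoters, and the antioxidant core at 5 of 14, against 13.3%. A match describes these letters and not a bound site.

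SLC1A5, an exchanger of glutamine and other neutral amino acids that also serves as a receptor for some retroviral envelopes (chromosome 19, 46774883 to 46788594), measured 1006, 1261, 1131, 771 and 930 normalized counts in the knockout libraries, against 1320, 1607, 1971 and 1357 in the control libraries. The groups did not overlap, with knockout 2 and control 1 nearest to each other. SLC1A5 stood at -0.62 on the log2 scale (SE 0.18, limma adjusted p = 0.28). The authors' deposited table gives an adjusted p of 0.052. SLC38A2, the sodium-coupled carrier whose transcription rises on amino acid shortage (chromosome 12, 46358189 to 46372867), measured 3855, 3733, 4364, 2728 and 3616 normalized counts in the knockout libraries, against 3595, 6404, 7354 and 4414 in the control libraries. Control 1 lay within the knockout range, and SLC38A2 stood at -0.53 on the log2 scale (SE 0.24, limma adjusted p = 0.57).

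All knockout libraries lay below all control libraries for 4 of the 10 members (SLC7A3, SLC7A2, SLC3A2 and SLC1A5), which was so for 2.6% of all tested rows and 3.35% of the tested protein-coding rows. All 10 log2 fold changes were negative, as for 49% of all tested rows and 63.4% of the protein-coding ones. The median of the members was -0.61, beside 0.01 over all tested rows and -0.14 over the 3739 protein-coding rows averaging 500 normalized counts or more. The members were chosen with this contrast known, so these figures describe them and support nothing.

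Control 3, the library with the highest share of protein-coding reads (50.8%, against 26.3% to 47.5% in the other 8), stood apart for well expressed genes: the median coding gene with a mean of at least 500 deviated by 0.58 (log2) there from its average of the 9 libraries, and by -0.26 to 0.19 in the others. Depth ran from 21434888 to 31192630 recovered reads in the knockout libraries and from 19838682 to 30388797 in the control libraries. Without control 3 the log2 fold change of SLC7A3 was -1.19, that of SLC7A2 -0.89, that of SLC7A5 -0.95, that of SLC3A2 -0.51 and that of SLC38A2 -0.37. In control 4 the same deviation was -0.22 for the median coding gene and 0.25 on average for the members. When libraries were scaled to their protein-coding reads the median of all tested rows moved up by 0.20, and relative to the new median SLC7A3 stood at -1.22, SLC7A5 at -1.18 and SLC7A8 at -0.18.

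**Figure D3:**
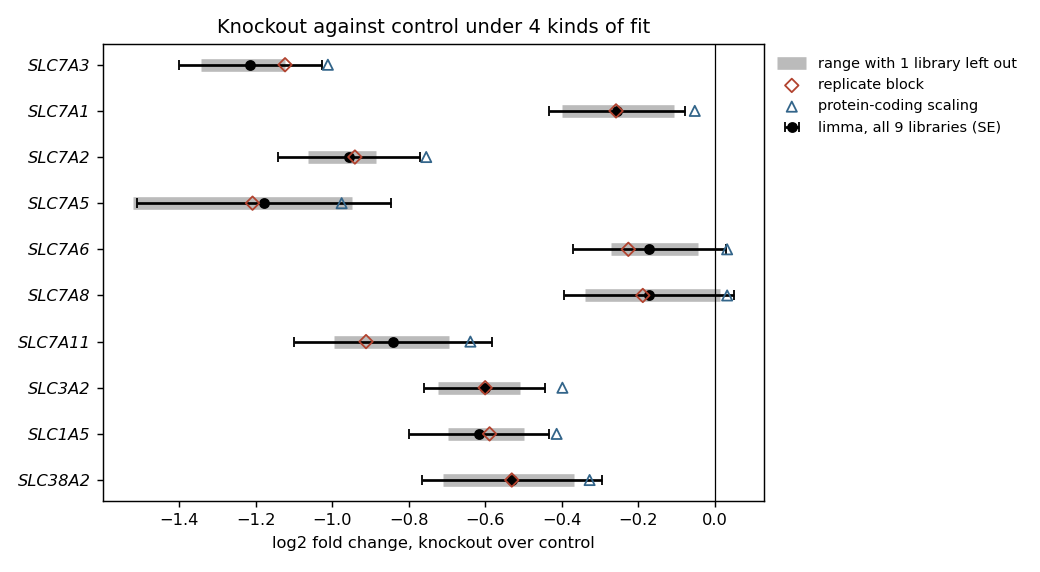
Log2 fold change, knockout over control, of each member in limma with all 9 libraries (black point, whisker for the SE), its range with 1 library left out (grey), with the replicate number as a block (diamond) and with libraries scaled to protein-coding reads (triangle). SLC7A3 lies between -1.34 and -1.01 in all of them, whereas SLC7A6 and SLC7A8 reach 0.032 under protein-coding scaling.

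Levels of different genes were compared per length, as reads per kilobase of merged exons scaled to library depth. In the knockout clone SLC38A2 was highest at 24.5 ± 5.34, followed by SLC7A3 at 16.2 ± 1.88, SLC3A2 at 13.9 ± 2.91 and SLC1A5 at 13.4 ± 2.29 (SD, n = 5). In the control clone, by merged exons, SLC7A3 was highest at 34.5 ± 9.82, followed by SLC38A2 at 31.95 ± 8.46, SLC3A2 at 19.2 ± 5.82 and SLC1A5 at 18.5 ± 4.16 (SD, n = 4). SLC38A2 exceeded SLC7A3 in 5 of 5 knockout libraries, while SLC7A3 exceeded SLC38A2 in 2 of 4 control libraries. By merged exons SLC3A2 and SLC1A5 did not differ beyond their spread in either clone. SLC3A2 was higher in 3 of 5 knockout and 2 of 4 control libraries by that length. By the longest transcript of each gene they did not stay level. SLC3A2 then averaged 32.5 and SLC1A5 15.5 in the knockout clone, against 44.8 and 21.4 in the control clone.

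The middle of the order held SLC7A8 at 7.84 ± 2.22 and SLC7A5 at 6.96 ± 1.86 in the knockout clone, against 7.86 ± 2.15 and 14.8 ± 5.83 in the control clone. SLC7A8 was above SLC7A5 in 4 of 5 knockout libraries, and SLC7A5 above SLC7A8 in 4 of 4 control libraries. SLC7A1 followed at 2.74 ± 0.676 in the knockout clone and 2.96 ± 0.903 in the control clone, above SLC7A6 in every library. SLC7A2 and SLC7A11 were lowest, at 0.530 ± 0.144 and 0.528 ± 0.189 in the knockout clone, against 0.933 ± 0.330 and 0.823 ± 0.163 in the control clone, and did not differ beyond their spread. The order at the top depends on the length used. By the longest transcript SLC38A2 stood at 33.1, SLC3A2 at 32.5 and SLC7A3 at 16.4 in the knockout clone. In the control clone SLC3A2 stood at 44.8, SLC38A2 at 43.2 and SLC7A3 at 34.9, so that SLC7A3 lay below both of them in either clone.

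Across passages of a clone the members moved in different company. Over the 9 libraries, taken as deviations from the clone means, SLC38A2 correlated with SLC7A5 at 0.942, with SLC7A8 at 0.931 and with SLC3A2 at 0.890, and SLC7A5 correlated with SLC7A1 at 0.934 (Pearson r). SLC7A3 correlated with SLC7A1 at 0.302, with SLC7A5 at 0.257, with SLC38A2 at 0.284 and with SLC7A2 at -0.017, its closest member being SLC1A5 at 0.688. These are descriptions over 9 libraries that share depth and scaling. The deviation of the median coding gene correlated in the same way at 0.829 with SLC1A5, 0.789 with SLC7A1, 0.762 with SLC38A2, 0.759 with SLC7A8, 0.635 with SLC7A5, 0.603 with SLC3A2 and 0.504 with SLC7A2. It correlated at 0.369 with SLC7A11, 0.333 with SLC7A3 and 0.16 with SLC7A6. Its part in the relations between members was not tested.

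The genes with the pattern most like that of SLC7A3 over the 9 libraries, by Pearson's r on log2(value + 1) among 16135 rows with a symbol and a mean of at least 50, were RP11-69I8.2 (0.977), ZNF880 (0.971), SOHLH2 (0.970), AC073071.1 (0.968) and AC005062.2 (0.962). As deviations from the clone means their r with SLC7A3 was 0.831, 0.798, 0.766, 0.751 and 0.731. All 5 had every knockout library below every control library, as in 2.6% of all tested rows, with log2 fold changes of -1.65, -1.43, -1.21, -2.46 and -3.83. They were picked for likeness to a gene chosen for its clone difference, so this follows largely from the choice. ZNF880 is a zinc finger gene and SOHLH2 a helix-loop-helix factor of germ cells. The median r over all rows compared was 0.156, and 116 rows reached 0.9.

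On chromosome X the tested rows nearest to SLC7A3 did not pass. On the side of lower coordinates GDPD2 stood at a log2 fold change of -0.35, DLG3-AS1 at 0.50, DLG3 at -0.06, SNORD3E at -1.08 (SE 1.43) and TEX11, whose end is 16.9 kb away, at -0.23. On the side of higher coordinates RPS23P8 stood at -1.27 (SE 0.91), SNX12 at -0.27, FOXO4, a forkhead transcription factor 165 kb away, at -1.24, CXorf65 at -1.21 (SE 0.92) and IL2RG at -0.12. With 1 library left out RPS23P8 ran from -1.76 to -0.55 and CXorf65 from -1.65 to -0.49, and SNORD3E, which had 0 counts in knockout 4, came to 0.30 without that library. Their lowest limma adjusted p was 0.35, for FOXO4, which DESeq2 called (adjusted p = 0.034), and the groups overlapped for all 10. Of 846 tested rows on chromosome X limma called 10 (1.18%, beside 0.54% of all rows) and 7 of these lower (0.827%, beside 0.425%), SLC7A3 among them. The median log2 fold change of the 846 rows was -0.03.

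Beyond the members, limma called 2 listed amino acid transporters lower in the knockout clone. SLC38A4, a carrier of small neutral amino acids of the same family as SLC38A2 (chromosome 12, 46764761 to 46832408), measured 72.8, 81.2, 68.7, 72.5 and 88.5 normalized counts in the knockout libraries, against 224, 194, 235 and 185 in the control libraries. No library of either clone came near the range of the other clone. The fold change of SLC38A4 was -1.44 on the log2 scale (SE 0.15, limma adjusted p = 0.0028), a call kept when any of the 9 libraries was left out (adjusted p at most 0.014) and lost with the replicate number as a block, where the fold change was -1.49 (adjusted p = 0.056). SLC16A10, which carries aromatic amino acids (chromosome 6, 111087503 to 111231194), measured 43.1, 80.1, 65.2, 53.1 and 45.7 normalized counts in the knockout libraries, against 174, 169, 198 and 111 in the control libraries. The groups did not overlap, and SLC16A10 stood at -1.50 on the log2 scale (SE 0.24, limma adjusted p = 0.031), a call kept in 2 of the 9 fits that leave a library out (adjusted p up to 0.12) and lost with the block, where the fold change was -1.43 (adjusted p = 0.13).

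These were limma's calls, and edgeR's, among 25 tested of 37 listed transporters outside the member list, 2 lower and 0 higher, beside 0.425% of all rows that limma called lower. DESeq2 and the authors' deposited table each call 3 of them lower, beside 1.62% and 1.53% of rows. The median of the 25 was -0.13. SLC6A6, the taurine transporter, averaged 798 ± 72.5 normalized counts in the knockout clone (SD, n = 5) and 1272 ± 256 in the control clone (SD, n = 4) without overlap, and missed limma's threshold (log2 fold change -0.65, adjusted p = 0.17) but passed with DESeq2 (adjusted p = 0.0083). SLC43A2, a carrier of large neutral amino acids, averaged 135 ± 26.4 in the knockout clone and 87.0 ± 15.2 in the control clone, the 1 listed transporter with every knockout library above every control library, as in 1.35% of all rows (log2 fold change 0.62, adjusted p = 0.34). SLC6A6 and SLC43A2 were picked after their values were seen. Of 7 further genes (SLC7 relatives and the heavy chain SLC3A1), 4 were tested and 0 passed with limma, edgeR or DESeq2 (0 also at an unadjusted limma p under 0.05), among them SLC7A7 at -0.38 and SLC7A14 at 0.07.

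**Figure D4:**
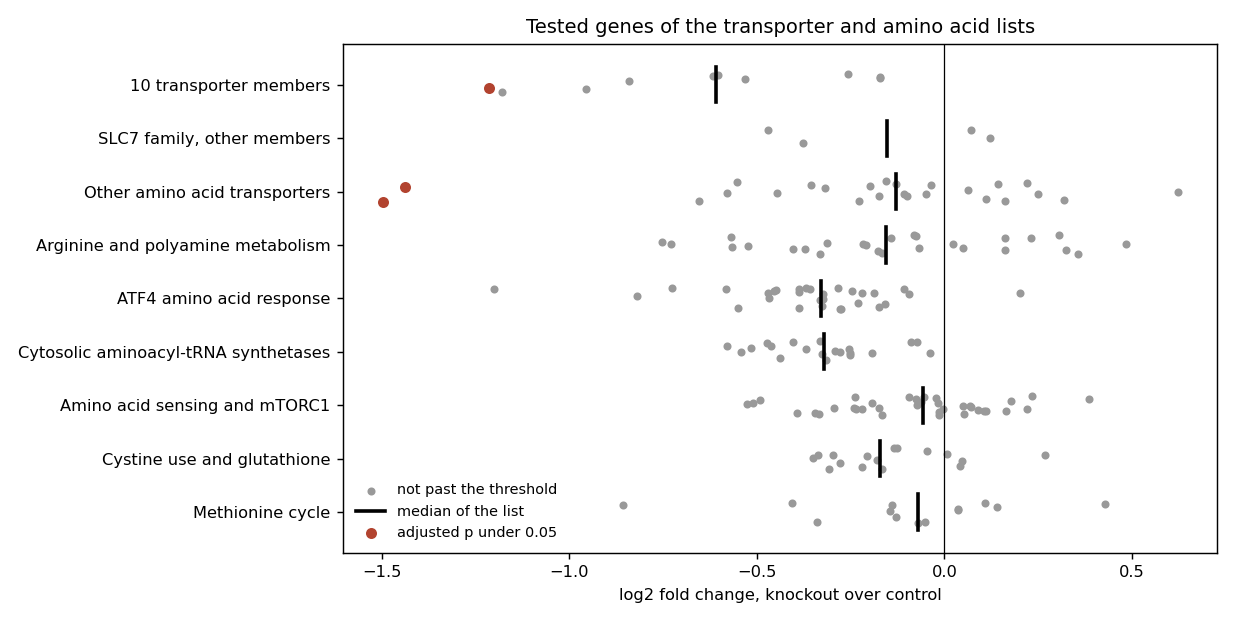
Log2 fold change, knockout over control, of every tested gene in the member list and in 8 lists of amino acid genes (grey points, red where the limma adjusted p is under 0.05), with a black line at each list's median. The red points are SLC7A3 among the members and SLC38A4 and SLC16A10 among the other transporters.

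Genes that respond to amino acid shortage lay mostly below 0 without single calls. Of 30 tested genes of the ATF4 response 29 had a negative log2 fold change, with a median of -0.33, against 75.2% of the 3739 well expressed coding rows and their median of -0.14. None of the 30 passed with limma, edgeR or DESeq2. Of all rows limma called 0.54% in either direction, while edgeR called 0.432% lower and DESeq2 1.62% lower. At an unadjusted limma p under 0.05, 4 of the 30 were lower and 0 higher, beside 5.05% of all rows lower. ATF4 itself averaged 2948 ± 902 normalized counts in the knockout clone and 4568 ± 1942 in the control clone (-0.58 on the log2 scale with an SE of 0.32, limma adjusted p = 0.67). PHGDH, the first enzyme of serine synthesis, stood at -0.32. All 20 cytosolic aminoacyl-tRNA synthetase genes, which charge tRNAs with amino acids, had a negative log2 fold change, with a median of -0.32 and 0 calls by limma, edgeR or DESeq2 (3 of 20 lower at an unadjusted limma p under 0.05, beside 5.05% of all rows). TARS1 stood at -0.54 and LARS1 at -0.04. Without control 3 the medians came to -0.19 for the ATF4 response and -0.11 for the synthetases, and that of the well expressed coding rows to 0.03.

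Genes that use or sense the transported amino acids gave no call either. For lists of this size that is near the background, 0.54% of all rows called by limma and 1.62% called lower by DESeq2. Of 26 tested genes of arginine and polyamine metabolism, the main uses of arginine besides protein, 0 passed with limma, edgeR or DESeq2 (2 lower at an unadjusted limma p under 0.05, beside 5.05% of all rows), with a median of -0.15. The antizyme OAZ1 stood at -0.37 and the antizyme inhibitor AZIN1 at -0.17. Of 36 tested genes of amino acid sensing and mTORC1, 0 passed with any of the 3 tests (0 at an unadjusted limma p under 0.05), with a median of -0.06, RHEB at -0.07 and EIF4EBP1 at -0.51. The 16 genes of cystine use and glutathione had 0 calls by the same tests (0 unadjusted) and a median of -0.17, with GPX4 at -0.35 and TXN at -0.17. The 13 tested genes of the methionine cycle had 0 calls by the same tests (0 unadjusted) and a median of -0.07, with MAT2A at 0.04 and AHCY at -0.34. With libraries scaled to protein-coding reads the medians became positive for mTORC1 (0.15), the methionine cycle (0.13), arginine and polyamines (0.05) and cystine use (0.03). Those of the other transporters (0.07) and the other SLC7 genes (0.05) did too. The medians stayed negative for the ATF4 response (-0.13) and the synthetases (-0.12). Under this scaling the median was 0.21 over all tested rows, above every list median, and 0.065 over the well expressed coding rows.

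The libraries carried the markers of the labelled cell type. The 10 pluripotency markers summed to between 36070 and 53140 normalized counts in the knockout libraries and between 41620 and 84470 in the control libraries, and none passed limma's threshold. Of the 10, 9 had a negative log2 fold change, beside 75.2% of the well expressed coding rows, with a median of -0.39, beside -0.14. TDGF1, a co-receptor for NODAL, was the 1 pluripotency marker lower at an unadjusted limma p under 0.05. It averaged 5338 ± 1512 normalized counts in the knockout clone and 10290 ± 3608 in the control clone (log2 fold change -0.92, limma adjusted p = 0.39). It was picked after its values were seen. In these bulk samples fewer cells of a type and less RNA per cell cannot be told apart. Markers of other cell types varied: 5 of 7 mesoderm, 5 of 6 endoderm, 4 of 6 neural ectoderm, 6 of 7 trophectoderm and amnion and 3 of 7 fibroblast markers averaged under 10 normalized counts. Others were well above that, among them THY1, with 2640 ± 567 normalized counts in the knockout clone and 3138 ± 914 in the control clone. COL1A2 averaged 634 ± 81.4 in the knockout clone and 643 ± 129 in the control clone, COL1A1 417 ± 135 and 716 ± 206, NES 401 ± 62.9 and 646 ± 202, and KRT7 151 ± 38.6 and 172 ± 54.2, in the same order. None of the listed markers of other cell types that were tested passed limma's threshold. Their sums were 36.9 to 65.4 for mesoderm in the knockout libraries against 47.9 to 86.1 in the control libraries, 23.2 to 59.0 against 34.0 to 159 for endoderm, 354 to 507 against 427 to 910 for neural ectoderm, 115 to 215 against 110 to 239 for trophectoderm and amnion, and 2884 to 4510 against 3239 to 5814 for fibroblasts, in the same order of clones. Most of the fibroblast sum was THY1, with 2640 of a mean sum of 3715 in the knockout clone and 3138 of 4518 in the control clone. The part of all these markers in the values of the transporters was not tested.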

How the data were processed

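Total RNA was depleted of ribosomal RNA and sequenced from 5 knockout and 4 control libraries, made with a stranded kit per the labels' protocols. The submitters' processing notes name fastp, kallisto and DESeq2 with hg38, without versions or roles. The values used are a signal per gene and library, the count divided by a size factor, in the authors' deposited table, which also holds their log2 fold changes, Wald score and raw and adjusted p-value. Dividing each library by its smallest nonzero value gave whole numbers for 100% of values (tolerance 1e-06), and these recovered reads gave depth and the count tests. No source used here names the authors' annotation release. Positions and lengths came from GENCODE 29 (GRCh38), by Ensembl ID without version, and gene names from the table.

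The test was limma 3.58.1 in R 4.3.3, with its trend option, fitted to log2(value + 1) with the group as only term, on rows kept by filterByExpr (minimum count 10), with Benjamini-Hochberg adjustment over 27777 rows. Fold changes on this scale understate those of low genes. edgeR 4.0.16 (quasi-likelihood) and DESeq2 1.42.0 on recovered reads were alternatives and called 151 and 593 rows. The labels file the replicate number as a batch, so a block for it was an alternative to this unpaired fit. After subtracting clone means, same-numbered libraries correlated at 0.067, 0.023, 0.25 and 0.33 and other pairs at -0.29 to 0.212, and knockout 5 has no partner. The script was run on simulated counts with known changes, drawn independently for each library and without shifts in library make-up. That checked the code and not how the test behaves on these libraries. The members, gene lists and test were chosen with earlier results of these data known. The genes named were the members, called list genes or else the 2 of highest mean, the 5 most like SLC7A3 and its 5 nearest tested rows on each side.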

Additional observations from a re-analysis of the deposited data

How the results depend on the processing

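Of the settings tried, the replicate block gave 43 called rows, against 593 with DESeq2 and 79 to 186 with 1 library left out. Without such changes it was 150. The count of members called, 1, became 0 with the block, under quantile normalization and under protein-coding scaling, 4 with DESeq2 (SLC7A3, SLC7A2, SLC7A5 and SLC3A2), and 0 to 1 with 1 library left out. SLC7A3 stood at -1.12 with the block, -1.05 under quantile normalization and -1.01 under protein-coding scaling, past the threshold in none of these, and at -1.34 to -1.12 with 1 library left out, past it only without knockout 2 or control 4. It passed with edgeR, DESeq2, TMM scaling, the other pseudocounts (0.5 and 5) and no filter. SLC7A2 passed without knockout 3, the only call among the other members in those 9 fits. The cause was not tested.

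Several values changed sign, most of them near 0, with SNORD3E (-1.08) the exception. Under quantile normalization SLC7A8 came to 0.0077, SLC7A14 to -0.030, AZIN1 to 0.069, LARS1 to 0.19, RHEB to 0.14, TXN to 0.12 and DLG3 to 0.057. Under protein-coding scaling SLC7A6 and SLC7A8 came to 0.032, AZIN1 to 0.036, LARS1 to 0.16, RHEB to 0.13, TXN to 0.038, DLG3 to 0.14 and IL2RG to 0.073. With TMM scaling LARS1 came to 0.0074. With the block SLC7A14 came to -0.0047 and MAT2A to -0.032. With 1 library left out the ranges were -0.34 to 0.012 for SLC7A8, -0.15 to 0.29 for SLC7A14, -0.35 to 0.086 for AZIN1, -0.10 to 0.071 for LARS1, -0.27 to 0.14 for RHEB, -0.33 to 0.094 for TXN, -0.088 to 0.13 for MAT2A, -0.23 to 0.099 for DLG3, -1.71 to 0.30 for SNORD3E and -0.24 to 0.046 for IL2RG. The block changed no other call among the members. SLC7A2 and SLC7A11 have the lowest normalized counts of the members, and whether depth limits their tests was not tested.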
